A study of Mus musculus with 4 samples.

Results

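The uncoupling proteins and the markers of brown and beige fat were followed in mouse bone marrow stromal cells (mBMSCs) treated with ginkgolic acid (GA). They are 10 genes, chosen by name among the 47069 gene identifiers of the FPKM table, and all 10 were found: Ucp1, Ucp2, Ucp3, Dio2, Elovl3, Kcnk3, Tmem26, Tbx1, Ckmt1 and Gatm. Cells that adhered after plating marrow of tibia and femur from wild type C57BL/6J mice (8 weeks) were used at passage 1. The GA plus DEX group (2 libraries) had 50 μM GA, an inhibitor of the E1 enzyme of sumoylation, with 1 μM dexamethasone (DEX), a synthetic glucocorticoid, for 3 days. The DMSO plus DEX group (2 libraries) had solvent with the same DEX for the same time, so both groups carried the glucocorticoid. For differentiation and qRT-PCR assays the methods count the primary cells of each mouse as a sample, and they do not say this of the RNA-seq libraries. If the libraries of a group share mice or cultures, their spread is technical. The p-values below cover only the spread between these libraries.

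Heat production in brown fat rests on UCP1, a carrier of the inner mitochondrial membrane that lets protons return to the matrix without making ATP. Brown fat cells hold it constantly, beige cells arise in white depots and switch it on under cold or adrenergic signals, and white fat cells have little or none. UCP2 and UCP3 are close relatives with other roles. UCP2 is widespread and abundant in macrophages, and UCP3 belongs mainly to skeletal muscle and brown fat.

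The promoters of the uncoupling protein genes and of Dio2 are printed because these genes differ widely in level while 3 of them are one family. Each is the 250 bases before the annotated start (RefSeq, GRCm38.p6), 5′ to 3′, with the motifs named below in capitals. They lie at chr8:83290098-83290347 (plus strand) for Ucp1, chr7:100493108-100493357 (plus strand) for Ucp2, chr7:100472741-100472990 (plus strand) for Ucp3 and chr12:90739039-90739288 (minus strand) for Dio2.
Ucp1: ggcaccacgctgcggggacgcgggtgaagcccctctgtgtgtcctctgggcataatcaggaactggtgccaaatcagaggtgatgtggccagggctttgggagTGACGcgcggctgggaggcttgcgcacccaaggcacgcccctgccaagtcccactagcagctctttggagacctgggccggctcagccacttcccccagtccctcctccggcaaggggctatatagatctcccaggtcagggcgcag
Ucp2: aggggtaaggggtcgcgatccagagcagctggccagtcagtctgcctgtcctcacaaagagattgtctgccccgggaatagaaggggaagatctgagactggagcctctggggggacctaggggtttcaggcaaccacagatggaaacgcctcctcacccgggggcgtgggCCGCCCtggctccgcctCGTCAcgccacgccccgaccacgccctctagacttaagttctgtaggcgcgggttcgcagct
Ucp3: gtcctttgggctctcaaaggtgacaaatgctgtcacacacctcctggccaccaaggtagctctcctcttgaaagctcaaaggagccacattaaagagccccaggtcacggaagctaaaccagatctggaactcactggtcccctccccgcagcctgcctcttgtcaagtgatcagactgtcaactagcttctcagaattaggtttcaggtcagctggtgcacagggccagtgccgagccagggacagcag
Dio2: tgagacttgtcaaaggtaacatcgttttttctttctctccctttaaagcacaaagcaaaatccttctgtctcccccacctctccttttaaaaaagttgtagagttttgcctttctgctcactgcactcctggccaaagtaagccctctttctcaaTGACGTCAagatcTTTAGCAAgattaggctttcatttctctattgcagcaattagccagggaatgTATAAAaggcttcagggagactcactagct
Both strands were searched for the TATA box, spelled TATAAA, and for the cAMP response element, spelled TGACGTCA. A shorter form of that element, which lies within it, was searched as TGACG. The site of C/EBP factors was spelled TTGCNNAA. The GC box bound by Sp1 was taken as GGGCGG. The box of nuclear factor Y was searched by its core, CCAAT. The direct repeat bound by PPAR and the glucocorticoid response element were also searched. Dio2 held the full cAMP response element from position -95, where -1 is the last base before the start, a C/EBP match at -82 and a TATA box at -30. Of the 32851 promoters of the table, 1.55% hold the first, 9.56% the second and 12.4% the last. Ucp1 held the short form at -147, and Ucp2 held it at -62 on the other strand with a GC box at -79. The short form stands in 17.8% and the GC box in 32.7% of promoters. None of these letters was found in the window of Ucp3. The PPAR repeat (0.338% of promoters) and the glucocorticoid element (0.387%) were found in none of the 8 members with an entry. A match of letters is a description and not a binding site.

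The libraries rested on 21559951 to 31069538 reads. For the test, limma was run two-sided on log2(FPKM + 1) of the 12174 genes whose FPKM averaged 1 or more, and genes with a Benjamini-Hochberg adjusted p under 0.05 were called. Differences on this scale understate those of genes at low FPKM. In GA plus DEX 46.3% of the genes were higher and 11.9% lower (58.3% in either direction), and the median gene stood 0.19 higher on the log2 scale. Counts are also given after bringing the libraries to a common median, which lowered each log2 difference by 0.23 and is called the shift below. After the shift 2380 of the 12174 genes were higher and 3392 lower. The counts of each list below are to be read beside these shares over all genes. The minimum is a mean over all 4 libraries, so a gene can meet it only through GA plus DEX. In the lists this held for Plin1, Cidec and Cfd (general adipocyte), Calcr, Oscar and Dcstamp (osteoclast) and Aif1 (macrophage). It held too for Kng2 (brown), Aqp7 and Nrg4 (beige), Lep and Retn (white), Dio3 and Thrsp (thyroid hormone) and Elovl4 (elongation). Counts of higher genes in these lists are partly set by the minimum. All 10 general adipocyte markers were higher, summing to 6223 and 5444 FPKM in GA plus DEX, against 109.8 and 113 FPKM in DMSO plus DEX. Of 13 stromal markers 12 were tested, 4 of them higher and 6 lower in GA plus DEX (after the shift 3 higher and 8 lower).

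Of the 10 genes, 2 passed the minimum, Ucp2 and Kcnk3, and both were higher in GA plus DEX, beside 46.3% of all genes tested. Kcnk3 met the minimum only through GA plus DEX, with means of 9.12 FPKM there and 0.0090 FPKM in DMSO plus DEX. Its entry to the test thus depended on the group where it is high, and the count of 2 is no result about the members. The other 8 averaged under 1 FPKM. In 4 of these, Ucp1, Dio2, Elovl3 and Tbx1, no library held more than 5 reads.

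**Figure D1:**
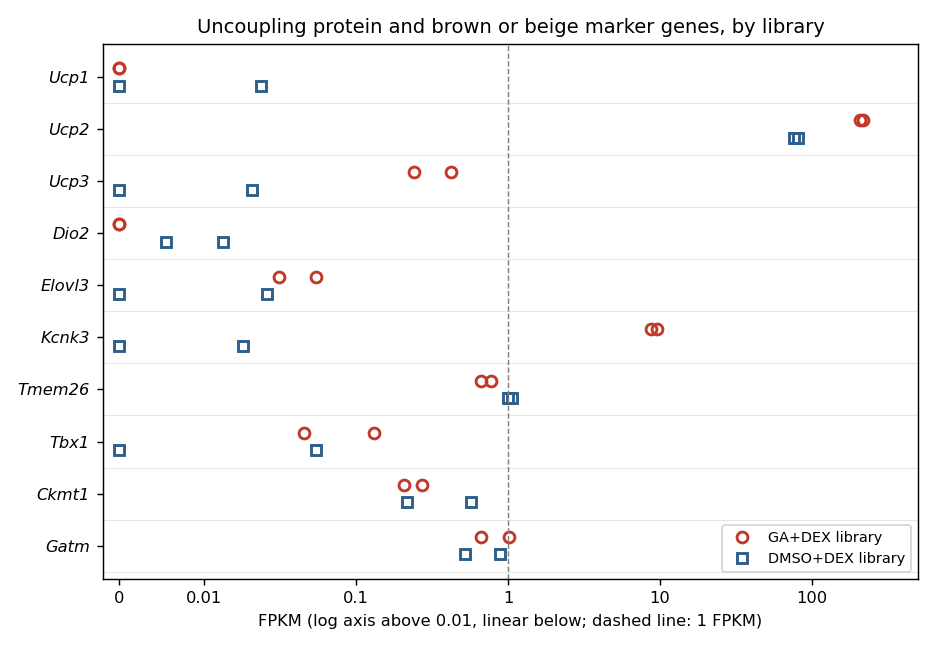
FPKM of the 10 genes in each library, with GA plus DEX as circles above DMSO plus DEX as squares, on an axis that is logarithmic except close to 0. Ucp2 lies between 75.7 and 214 FPKM, Kcnk3 is at 9.58 and 8.66 FPKM in GA plus DEX and at or near 0 in DMSO plus DEX, and the other genes do not exceed 1.05 FPKM.

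Ucp1 (ENSMUSG00000031710) was not detected in GA plus DEX. It had 0 FPKM in both GA plus DEX libraries, against 0 and 0.0237 FPKM in DMSO plus DEX, and the value above 0 is 1 read. A count of 0 allows up to 3 reads, which over both GA plus DEX libraries is 0.0395 FPKM. Both groups were at this floor, so no fold is given. Intervals and floors here cover counting error only.

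Ucp2 (ENSMUSG00000033685) was the abundant member of the family. It had 214 and 207 FPKM in GA plus DEX, against 75.7 and 80.1 FPKM in DMSO plus DEX. Both GA plus DEX libraries were high and the groups did not overlap, as for 44.8% of all genes above 0 in this direction. It rose 2.71-fold, with means of 211 ± 5.04 FPKM in GA plus DEX and 77.9 ± 3.14 FPKM in DMSO plus DEX (SD, n = 2 each). The log2 fold change was 1.43 with a standard error of 0.06 (limma, adjusted p = 1.16e-06), and 1.19 after the shift. Its level stood above 96.6% of tested genes in GA plus DEX and 90.4% in DMSO plus DEX. Ucp2 held at least 99.8% of the summed FPKM of the 3 uncoupling protein genes in every library. Its exons overlap those of Dnajb13 on the other strand, which had 0.928 and 0.850 FPKM in GA plus DEX and 0.264 and 0.460 FPKM in DMSO plus DEX, and whether counting used strand is not stated in the sources.

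Macrophage and osteoclast genes were higher in the same libraries as Ucp2. Of 15 macrophage markers 13 were tested, 12 of them higher and 0 lower in GA plus DEX (after the shift 8 higher and 0 lower), and their levels summed to 5308 and 4574 FPKM in GA plus DEX, against 3895 and 3647 FPKM in DMSO plus DEX. Adgre1, the gene of the macrophage antigen F4/80, had 44.4 and 38.1 FPKM in GA plus DEX, against 20.3 and 20.2 FPKM in DMSO plus DEX. The mannose receptor gene Mrc1 rose 2.18-fold, while Cd14 did not pass (log2 difference 0.07, adjusted p = 0.521 from limma). Adgre4 was at 0 in all 4 libraries. Of 9 osteoclast markers 8 were tested, 8 of them higher and 0 lower in GA plus DEX (after the shift 8 higher and 0 lower), and their levels summed to 941 and 878 FPKM in GA plus DEX, against 306 and 291 FPKM in DMSO plus DEX. The part of these cells in the level of Ucp2 was not tested. In bulk RNA, more cells of a type and more RNA per cell cannot be told apart.

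Among the 5 genes most like Ucp2, by the distance between gene-centred log2 values over the 4 libraries among 9058 candidates, were Itga1, Cpt1a, Agpat3 and Mknk2. The distances of these 4 ran from 0.0367 to 0.0555 and their log2 fold changes from 1.39 to 1.43. Fold changes close to that of Ucp2 follow from this choice and are no sign of a shared role. Cpt1a encodes the carnitine palmitoyltransferase that admits long-chain fatty acids to mitochondria. It had 22.6 and 22.3 FPKM in GA plus DEX, against 7.75 and 8.15 FPKM in DMSO plus DEX.

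Ucp3 (ENSMUSG00000032942), which neighbours Ucp2 on chromosome 7, was detected almost wholly in GA plus DEX. It had 0.423 and 0.240 FPKM in GA plus DEX, against 0 and 0.0209 FPKM in DMSO plus DEX. The reads were 17 and 11 in GA plus DEX and 0 and 1 in DMSO plus DEX. The groups did not overlap, as for 44.8% of all genes above 0 in this direction. Scaled to depth, the read ratio of GA plus DEX to DMSO plus DEX was 34.4 (95% exact interval 5.69 to 1408). With no minimum FPKM Ucp3 was higher (limma, adjusted p = 0.0288), beside 20.3% of genes in that fit. With limma's voom on the recovered reads it was higher too (adjusted p = 0.0015), beside 19.0%. Of 10 skeletal muscle markers 2 were tested and neither passed (after the shift 1 was lower), and the list summed to 7.03 and 6.45 FPKM in GA plus DEX, against 6.13 and 6.21 FPKM in DMSO plus DEX. With no minimum FPKM and with voom, Acta1, skeletal muscle actin, was higher like Ucp3 (limma, adjusted p = 0.0143 and 0.00611), with 0.809 and 0.624 FPKM in GA plus DEX, against 0.202 and 0.109 FPKM in DMSO plus DEX. Acta1, chosen after its values were seen, was the only muscle marker higher in these fits (1 of 9 with no minimum, 1 of 4 with voom). Tnnt3 had 0.588 and 0.796 FPKM in GA plus DEX and 0.705 and 0.717 FPKM in DMSO plus DEX. Des had a log2 difference of -0.09. The part of muscle cells in the level of Ucp3 was not tested. Among the other muscle genes, Myh2 was at 0 in every library and Ckm had 0.0328 FPKM at most.

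Kcnk3 (ENSMUSG00000049265), which encodes the potassium channel TASK-1 and is enriched in brown over white fat, showed the widest gap among the members. It had 9.58 and 8.66 FPKM in GA plus DEX, against 0 and 0.0180 FPKM in DMSO plus DEX. The reads were 446 and 460 in GA plus DEX and 0 and 1 in DMSO plus DEX, so DMSO plus DEX was at or near 0. The groups did not overlap, as for 44.8% of all genes above 0 in this direction. The log2 fold change was 3.32 with a standard error of 0.10 (limma, adjusted p = 3.04e-07). This value depends on the pseudocount, at 6.41 with 0.1 and 1.49 with 5. The depth-scaled read ratio of GA plus DEX to DMSO plus DEX was 1114 (95% exact interval 199 to 44061). The level in GA plus DEX was above that of 37.7% of tested genes. Gm9899 on the other strand overlaps its exons and had 0.287 and 0.251 FPKM in GA plus DEX and 0 FPKM in DMSO plus DEX.

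Of 13 other genes of this channel class 4 were tested, 1 of them higher and 1 lower in GA plus DEX (after the shift 0 higher and 2 lower). Kcnk13 had 6.74 and 6.27 FPKM in GA plus DEX, against 4.71 and 4.69 FPKM in DMSO plus DEX, and was higher, though not after the shift (limma, adjusted p = 0.115). With voom on reads Kcnk13 was higher (limma, adjusted p = 0.0496). Kcnk1 had 10.9 and 10.9 FPKM in GA plus DEX, against 18.3 and 17.1 FPKM in DMSO plus DEX, and was lower. Kcnk2 did not pass (log2 difference -0.08, adjusted p = 0.414 from limma) but was lower after the shift (-0.31). Kcnk9, a close relative of Kcnk3, was listed at 0 in all 4 libraries.

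Dio2 (ENSMUSG00000007682), the deiodinase that makes active thyroid hormone within brown fat, was at the floor. It had 0 FPKM in both GA plus DEX libraries, against 0.00554 and 0.0134 FPKM in DMSO plus DEX, or 1 and 2 reads in DMSO plus DEX. Of 12 other genes of thyroid hormone handling 11 were tested, 9 of them higher and 1 lower in GA plus DEX (after the shift 7 higher and 1 lower). Dio3, the deiodinase that inactivates the hormone, rose 6.65-fold, with 6.37 and 6.68 FPKM in GA plus DEX, against 1.09 and 0.872 FPKM in DMSO plus DEX. Dio1 had 0 and 0.113 FPKM in GA plus DEX and 0 FPKM in both DMSO plus DEX libraries. The receptor genes Thra and Rxra were higher (log2 fold changes 0.58 and 0.68), as was the transporter gene Slc16a10 (1.19). The amino acid transporter gene Slc7a5, which also carries thyroid hormone, fell by 0.70 on the log2 scale. Thrsp, a thyroid hormone responsive gene of lipid synthesis, had 44.3 and 31.7 FPKM in GA plus DEX, against 0.0721 and 0 FPKM in DMSO plus DEX.

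Elovl3 (ENSMUSG00000038754), the elongase that cold induces in brown fat, was also near 0. It had 0.0310 and 0.0544 FPKM in GA plus DEX, against 0 and 0.0260 FPKM in DMSO plus DEX. The reads were 1 and 2 in GA plus DEX and 0 and 1 in DMSO plus DEX, and no fold is given. Its exons overlap those of Pitx3 on the other strand. Of 11 other genes of fatty acid elongation 9 were tested, 8 of them higher and 0 lower in GA plus DEX, beside 46.3% and 11.9% of all genes. After the shift 2 were higher and 0 lower, beside 2380 and 3392 of all 12174 genes. Elovl5, which elongates polyunsaturated fatty acids, had 86.8 and 82.7 FPKM in GA plus DEX, against 64.3 and 65.7 FPKM in DMSO plus DEX, and its log2 fold change of 0.38 did not pass after the shift (limma, adjusted p = 0.0539). Elovl5 was still higher after quantile normalization (limma, adjusted p = 0.0203) and with voom on reads (limma, adjusted p = 0.0361). Elovl4 rose 2.91-fold and Hsd17b12, of the same cycle, 1.33-fold. Tecr did not pass (log2 difference 0.11, adjusted p = 0.2 from limma).

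Tmem26 (ENSMUSG00000060044), a surface marker of beige cells, lay lower in GA plus DEX. It had 0.661 and 0.772 FPKM in GA plus DEX, against 1.00 and 1.05 FPKM in DMSO plus DEX. The reads were 72 and 96 in GA plus DEX and 157 and 137 in DMSO plus DEX. Both GA plus DEX libraries lay below both DMSO plus DEX libraries, as for 14.1% of all genes above 0. The depth-scaled read ratio was 0.703 (95% exact interval 0.578 to 0.852). With no minimum FPKM Tmem26 did not pass (log2 difference -0.24, limma, adjusted p = 0.113), beside 5.23% of genes that were lower. With voom on reads it was lower (adjusted p = 0.00202), beside 19.8%.

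Tbx1 (ENSMUSG00000009097), a T-box transcription factor gene and beige marker, had 0.131 and 0.0457 FPKM in GA plus DEX, against 0.0543 and 0 FPKM in DMSO plus DEX. The reads were 5 and 2 in GA plus DEX and 3 and 0 in DMSO plus DEX, and the groups overlapped. Of 14 other T-box genes 4 were tested, 1 of them higher and 1 lower in GA plus DEX (after the shift 0 higher and 2 lower). Tbx15, a factor of subcutaneous fat, had 52.2 and 53.9 FPKM in GA plus DEX and 50.7 and 53.4 FPKM in DMSO plus DEX. It did not pass (log2 difference 0.03, adjusted p = 0.691 from limma) and was lower after the shift (-0.20). Tbx2 had 10.9 and 13.3 FPKM in GA plus DEX, against 32.4 and 34.0 FPKM in DMSO plus DEX, and was lower. Tbx18 was higher (log2 fold change 0.30), but not after the shift (limma, adjusted p = 0.478) nor without GA replicate 2 (adjusted p = 0.0514).

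Ckmt1 and Gatm belong to creatine metabolism, in which beige fat can spend ATP by phosphorylating creatine at mitochondria and splitting phosphocreatine again. Gatm (ENSMUSG00000027199), the first enzyme of creatine synthesis, had 1.02 and 0.660 FPKM in GA plus DEX, against 0.522 and 0.884 FPKM in DMSO plus DEX. The reads were 27 and 20 in GA plus DEX and 20 and 28 in DMSO plus DEX, the groups overlapped, and the depth-scaled ratio was 1.20 (95% exact interval 0.788 to 1.84). Ckmt1 (ENSMUSG00000000308), a mitochondrial creatine kinase, had 0.207 and 0.271 FPKM in GA plus DEX, against 0.573 and 0.217 FPKM in DMSO plus DEX. The reads were 4 and 6 in GA plus DEX and 16 and 5 in DMSO plus DEX. Here only DMSO replicate 1 was high, the groups overlapped, and the ratio was 0.586 (95% exact interval 0.246 to 1.30). With no minimum FPKM neither passed (limma, adjusted p = 0.668 for Gatm and 0.474 for Ckmt1). These intervals leave out the spread between libraries, such as the 16 and 5 Ckmt1 reads in DMSO plus DEX. Differences within them, or somewhat beyond them, could have been missed.

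**Figure D2:**
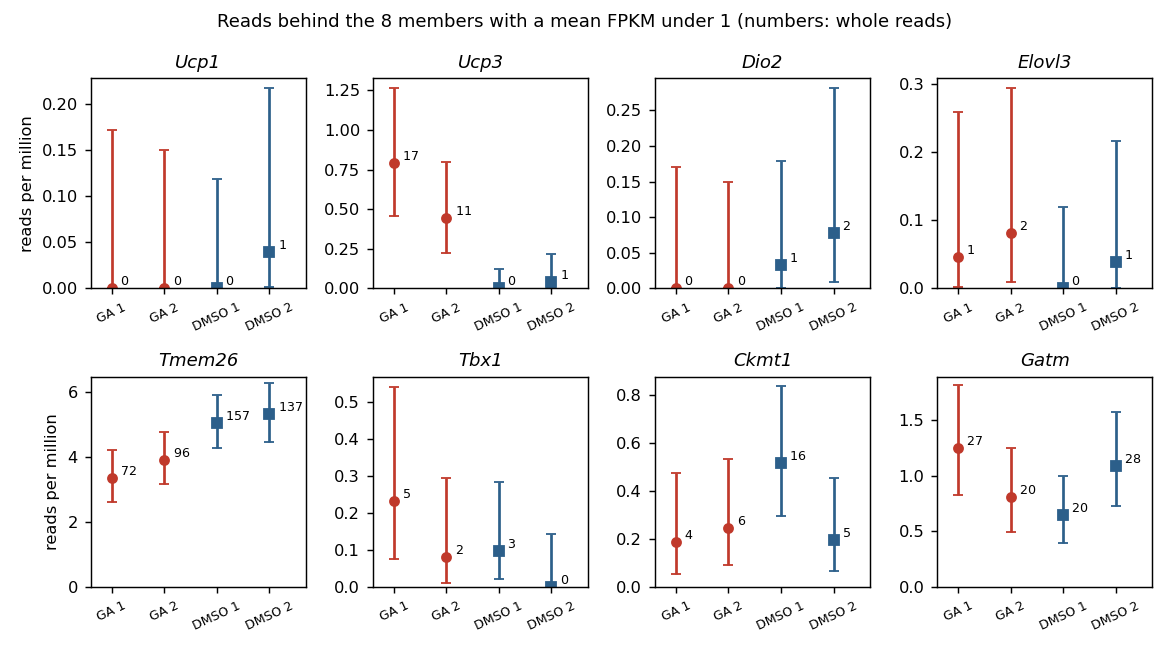
Depth-scaled reads of the 8 genes with a mean FPKM under 1, with GA plus DEX libraries left of DMSO plus DEX libraries, bars for the 95% exact Poisson interval of counting error, and the whole reads beside each point. Ucp3 is high in both GA plus DEX libraries (17 and 11 reads, against 0 and 1 in DMSO plus DEX), and Tmem26 is low in both (72 and 96 reads, against 157 and 137).

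Of 7 other genes of creatine handling 5 were tested, 1 of them higher and 3 lower in GA plus DEX (after the shift 0 higher and 4 lower). Gamt, which completes creatine synthesis, was higher (log2 fold change 0.36), though not after the shift (limma, adjusted p = 0.125). The creatine transporter gene Slc6a8 fell by 0.40 on the log2 scale. Alpl, tissue-nonspecific alkaline phosphatase and in mouse fat also a phosphocreatine phosphatase, had 2101 and 2419 FPKM in GA plus DEX, against 3398 and 3407 FPKM in DMSO plus DEX. It was lower (log2 fold change -0.59), but not with no minimum FPKM (limma, adjusted p = 0.0642). Phospho1, like Alpl a gene of bone mineralization, was lower with 1.44 and 1.34 FPKM in GA plus DEX, against 2.68 and 4.11 FPKM in DMSO plus DEX. Ckb, a cytosolic creatine kinase, did not pass (log2 difference -0.03, adjusted p = 0.715 from limma) and was lower after the shift (-0.26). The muscle kinase genes Ckm and Ckmt2 had at most 0.0328 and 0.0936 FPKM.

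Of 9 mitochondrial carriers related to the uncoupling proteins 7 were tested, 5 of them higher and 0 lower in GA plus DEX (after the shift 4 higher and 0 lower). Slc25a5, an adenine nucleotide translocase, had 526 and 466 FPKM in GA plus DEX, against 209 and 215 FPKM in DMSO plus DEX, and rose 2.34-fold. Its sister Slc25a4 did not pass (log2 difference 0.08, adjusted p = 0.315 from limma). The dicarboxylate carrier gene Slc25a10 rose 3.10-fold and the carnitine carrier gene Slc25a20 2.06-fold. Slc25a27, also named UCP4, had 0.483 and 0.544 FPKM in GA plus DEX and 0.264 and 0.304 FPKM in DMSO plus DEX and was not tested.

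Other brown fat markers went both ways. Of 18 such genes 11 were tested, 5 of them higher and 5 lower in GA plus DEX (after the shift 5 higher and 5 lower), with a median log2 difference of 0.45 beside 0.19 over all genes tested. The list summed to 234 and 225 FPKM in GA plus DEX, against 250.2 and 252 FPKM in DMSO plus DEX. Cox7a1, the muscle and brown fat isoform of a cytochrome oxidase subunit, had 3.88 ± 0.279 FPKM in GA plus DEX and 1.63 ± 0.193 FPKM in DMSO plus DEX (SD, n = 2 each) and was higher. Cox8b, another such isoform, had 2.18 and 1.12 FPKM in GA plus DEX, against 0 and 0.107 FPKM in DMSO plus DEX. It was under the minimum, and with none it was higher (limma, adjusted p = 0.0178). Cidea, a lipid droplet protein gene of brown and beige cells, had 0.120 and 0.244 FPKM in GA plus DEX and 0.0553 and 0 FPKM in DMSO plus DEX. Zic1, a marker of classical brown fat, was at 0 in all 4 libraries, and Cpt1b, the muscle and brown fat isoform of the carnitine palmitoyltransferase, had 0.104 FPKM at most. Kng2 rose 8.35-fold and S100b 1.72-fold. Fabp3, the heart-type fatty acid binding protein gene, had 17.5 and 15.2 FPKM in GA plus DEX, against 33.3 and 36.2 FPKM in DMSO plus DEX, and was lower. Acot11, P2rx5 and Eva1a were lower as well (log2 fold changes -0.51, -0.57 and -0.46), P2rx5 not with no minimum FPKM (limma, adjusted p = 0.0881). Pdk4, which brakes pyruvate dehydrogenase, was the most abundant of the list, with 118 and 113 FPKM in GA plus DEX, against 129 and 132 FPKM in DMSO plus DEX. It was lower (log2 fold change -0.17, limma, adjusted p = 0.025), but not without DMSO replicate 1 (adjusted p = 0.102), DMSO replicate 2 (0.145) or GA replicate 2 (0.0617).

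Of 10 other beige markers 7 were tested, 6 of them higher and 0 lower in GA plus DEX (after the shift 3 higher and 0 lower). Sp100 did not pass (log2 difference -0.03, adjusted p = 0.88 from limma) and was lower without GA replicate 1 (log2 fold change -0.25). Aqp7, a glycerol channel gene of fat cells, had 74.5 and 72.8 FPKM in GA plus DEX, against 0.378 and 0.295 FPKM in DMSO plus DEX. The fatty acid transporter gene Slc27a1 rose 5.85-fold and Klhl13 1.78-fold. Cited1 had 0.117 FPKM and Tnfrsf9 (CD137) 0.199 FPKM at most. Ear2, also a ribonuclease gene of eosinophils and macrophages, had 1.94 and 1.58 FPKM in GA plus DEX, against 0.0448 and 0 FPKM in DMSO plus DEX.

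Of 14 white fat markers 10 were tested, 7 of them higher and 1 lower in GA plus DEX (after the shift 5 higher and 2 lower). Lep, leptin, had 5.14 and 4.04 FPKM in GA plus DEX, against 0.0175 and 0.0211 FPKM in DMSO plus DEX. Retn, which encodes the adipokine resistin, made in mice by white fat, had 11.7 and 10.7 FPKM in GA plus DEX and was listed at 0 in both DMSO plus DEX libraries. Nnmt, which methylates nicotinamide, rose 4.30-fold and Agt, angiotensinogen, 3.17-fold. Inhbb, an inhibin and activin subunit gene, had 18.8 and 22.9 FPKM in GA plus DEX, against 58.7 and 62.3 FPKM in DMSO plus DEX, and was lower. Hoxc10 did not pass (log2 difference -0.01, adjusted p = 0.888 from limma) and was lower after the shift (-0.24). Tcf21 had 0.0379 FPKM at most.

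**Figure D3:**
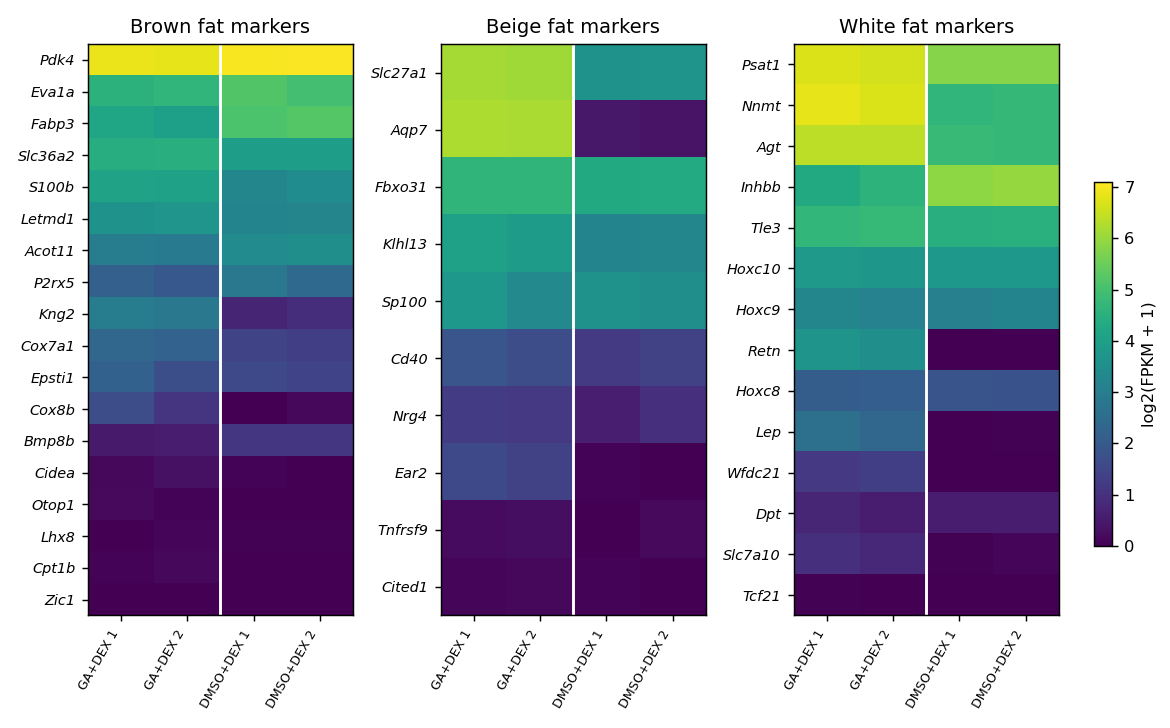
Level of each gene of the brown, beige and white fat marker lists as log2(FPKM + 1), with GA plus DEX libraries in the left columns and DMSO plus DEX libraries in the right columns of each panel. Genes at or near 0 in both DMSO plus DEX libraries and above it in GA plus DEX occur in each panel. They include Cox8b (brown), Aqp7 and Ear2 (beige) and Retn and Lep (white). Genes at or near 0 in all 4 libraries also occur in each panel. They include Zic1 and Cpt1b (brown), Cited1 (beige) and Tcf21 (white). Cidea (brown) and Tnfrsf9 (beige) are low, with at most 0.244 and 0.199 FPKM, and both GA plus DEX libraries lie above both DMSO plus DEX libraries.

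Of 26 regulators of the thermogenic program 19 were tested, 15 of them higher and 2 lower in GA plus DEX (after the shift 9 higher and 3 lower). Prdm16, Ppargc1b, Ppara, Adrb3 and Klb, all higher, averaged under 1 FPKM in DMSO plus DEX and met the minimum only through GA plus DEX. The count of higher genes is thus partly set by the minimum. Ppargc1a, the coactivator that adrenergic signals induce in brown fat, had 0.214 and 0.227 FPKM in GA plus DEX, against 0.106 and 0.0640 FPKM in DMSO plus DEX, and with no minimum FPKM it did not pass (limma, adjusted p = 0.0535). Its relative Ppargc1b had 5.53 and 6.56 FPKM in GA plus DEX, against 0.814 and 0.777 FPKM in DMSO plus DEX, and rose. Prdm16, a factor of brown and beige fate, rose 2.56-fold, with 2.45 and 2.34 FPKM in GA plus DEX, against 0.925 and 0.942 FPKM in DMSO plus DEX. Among the receptors for catecholamines, which switch Ucp1 on, Adrb3 had 10.7 ± 0.0271 FPKM in GA plus DEX and 0.370 ± 0.138 FPKM in DMSO plus DEX (SD, n = 2 each) and was higher. Adrb1, which was not tested, had 0.335 and 0.424 FPKM in GA plus DEX and 0.736 and 0.546 FPKM in DMSO plus DEX. Klb, the coreceptor for FGF21, had 13.8 and 13.0 FPKM in GA plus DEX, against 0.0263 and 0.0477 FPKM in DMSO plus DEX. The receptor gene Fgfr1 fell by 0.75 and Cebpb by 0.30 on the log2 scale. Zfp516 did not pass (log2 difference -0.11, adjusted p = 0.192 from limma) and was lower after the shift (-0.34). Of 8 genes of calcium cycling 2 were tested, 2 of them higher and 0 lower in GA plus DEX (after the shift 0 higher and 0 lower), both being calcium pump genes, Atp2a2 and Atp2a3.

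**Figure D4:**
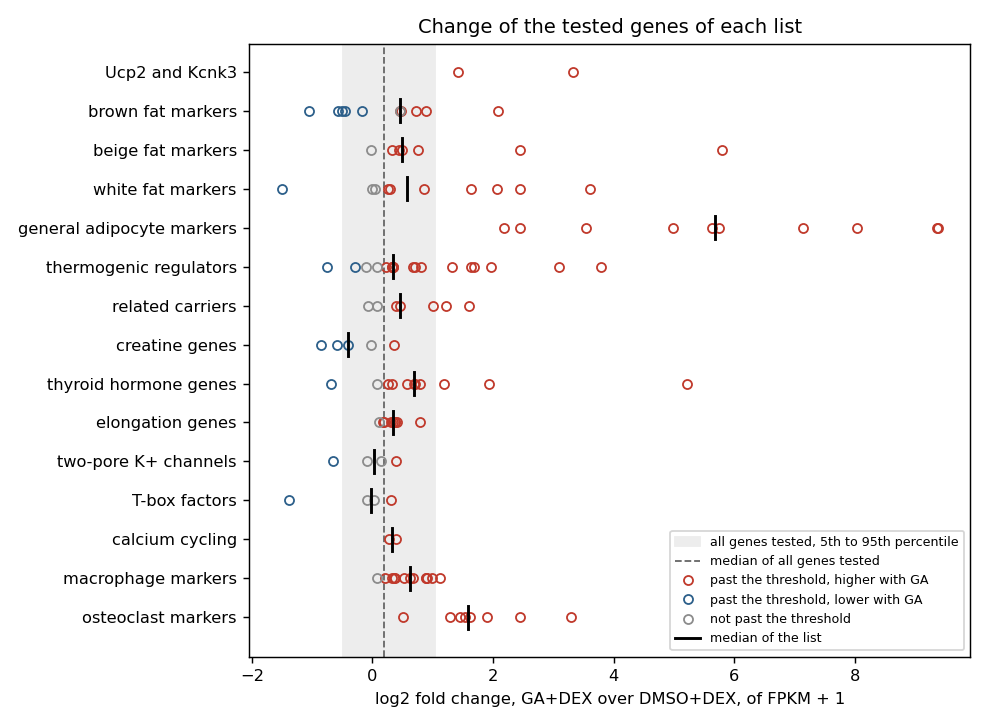
Log2 difference of FPKM + 1, GA plus DEX minus DMSO plus DEX, for each tested gene of each list, with a bar at the median of each list other than the members and the spread and median (0.19) of all genes tested for comparison. Ucp2 (1.43) and Kcnk3 (3.32) are the members shown, brown fat markers lie on both sides of 0, and white fat markers reach 3.61 for Retn.

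By level, Ucp1 and Dio2 had no reads in either GA plus DEX library, Elovl3 had 3 reads there in all and Tbx1 7, and Tmem26 was under 1 FPKM. Ucp1, Dio2, Elovl3 and Tbx1 were thus at or near 0 in these cells at 3 days. Not all members were: Kcnk3 had 9.58 and 8.66 FPKM in GA plus DEX, against 0 and 0.0180 FPKM in DMSO plus DEX. Ucp3, though under 1 FPKM, had 17 and 11 reads in GA plus DEX, against 0 and 1 in DMSO plus DEX. In the same libraries the adipocyte gene Fabp4 had 1685 and 1373 FPKM in GA plus DEX, against 10.6 and 9.14 FPKM in DMSO plus DEX.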

How the data were processed

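RNA-seq libraries of mBMSCs were analysed, 2 in each group as the titles label them. The authors deposited a table of FPKM, read counts scaled to gene length and library depth. Their processing notes list mm9, HTSeq 0.6.1, TopHat2 2.0.12 and Bowtie2 2.2.3 with no role for each, and the sources used here state neither annotation nor strand. A gene that takes many reads lowers the FPKM of others.

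Symbols were matched for 46488 identifiers. Reads were recovered from the commonest 1-read step of each library (1689 to 1827 genes) and, per gene, the length nearest its mean transcript length in GENCODE M21 that made all values whole within 0.0001 reads. All 23404 genes above 0 came out whole, 16528 at that length. They summed to 101.1% to 101.3% of the depth, so reads of some genes are too high, by one factor in all libraries.

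The test was limma 3.58.1 in R 4.3.3 (eBayes with trend, pseudocount 1, minimum mean FPKM 1). The fit was also run on simulated reads with little spread beyond counting error and no general offset between the groups. That run checks the code and does not vouch for the calls on these libraries. Alternatives were pseudocounts of 0.1 and 5, no minimum or one of 5, the shift, quantile normalization, no trend, each library left out and a replicate block. Voom on recovered reads (10 or more) was chosen after seeing the data. Members and lists were chosen with earlier results of these data known. Named were the members; per list, up to 3 called genes a direction with the largest difference, up to 2 abundant genes that did not pass, the 2 most abundant and markers at 0; and the 5 genes most like Ucp2 (mean FPKM of 5 or more). Not all are described, and some items are not reported here. Other genes named, such as Cidea, Cox7a1, Cox8b, Cpt1b, Cited1, Tnfrsf9, Ear2, Tcf21, Ppargc1a, Prdm16, Adrb1, Slc25a27 and Acta1, were chosen after their values were seen. Promoters are RefSeq's on GRCm38.p6, and gene coordinates are not given.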

Additional observations from a re-analysis of the deposited data

How the results depend on the processing

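Ucp2 and Kcnk3 kept their direction and call in each alternative that tested them, with log2 fold changes of 1.19 to 1.47 for Ucp2 (13 alternatives) and 1.49 to 9.10 for Kcnk3 (12 alternatives). A minimum FPKM of 5 left 1 member tested, Ucp2, which was higher, as were 4584 of all 9059 genes. With no minimum 3 of 10 members were higher and 0 lower, beside 20.3% and 5.23% of genes. With voom 3 of 7 members were higher and 1, Tmem26, was lower, beside 19.0% and 19.8% of genes. These counts are no result about the members. Over all genes, 5639 and 1454 genes were higher and lower as deposited, 2380 and 3392 after the shift, 2394 and 3273 after quantile normalization and 3196 and 3324 with voom. Tbx15 changed sign and was lower in these fits, with log2 differences of -0.20, -0.18 and -0.19, against 0.03; the cause was not tested. Leaving out 1 library gave 4475 to 5174 genes higher and 1136 to 1411 lower. Libraries with the same number did not deviate together (correlation -0.0250 over all genes tested), and the replicate block gave 5528 and 1433 genes without changing the call of Ucp2 or Kcnk3. Of 64 tested genes named, 50 kept direction and call after the shift, 51 after quantile normalization, 53 with voom, 64 with the block and 59 to 63 with 1 library left out. Called genes among these 64 were mostly named for the largest differences in their lists, so the shares that kept their call do not stand for all genes. Depth limits Ucp1, Dio2, Elovl3 and Tbx1, which had at most 5 reads per library.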
